A study of Mus musculus with 4 samples.

Results

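Transcripts of 50 transcription factors that mark position along the brain, from forebrain to hindbrain and from dorsal to ventral, were measured in the ventral midbrain of mice with and without the nuclear receptor REV-ERBα. The 50 were taken from a list of gene symbols, and each was read by the probe set annotated to that symbol alone, the one with the highest mean where there was more than 1. All 50 had a probe set, out of 19938 genes with one on the array. The 4 arrays held RNA from 2 samples of wild-type mice (WT) and 2 samples of Rev-erba knock-out mice (RKO), which the labels call biological replicates. All were male, on a C57BL/6J background and 10 to 15 weeks old. They had been entrained for over 10 days to 12 h of light a day and then kept for 2 days in constant darkness before they were killed on the next day. The clock hour of collection, the number of mice behind each array and the part of the gene deleted are not given in the sources used here, and the labels name no promoter or Cre driver that would limit the loss of the receptor to one cell type.

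Position factors divide the embryonic neural tube into domains. Secreted signals from the floor plate, the roof plate and the isthmus, the boundary between midbrain and hindbrain, switch on different homeodomain, paired-box, forkhead and zinc-finger proteins, which repress each other at the borders. Many stay on in adult neurons and glia, so a piece of adult tissue carries a record of the domains its cells came from and of those in neighbouring tissue. REV-ERBα, encoded by Nr1d1, is a repressor of the circadian clock and was not chosen here for any known action on these genes.

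As a check of the labels, Nr1d1 was lower in the RKO arrays, at intensities of 1259 and 1229.7 against 2897 and 3099 (log2 difference -1.27, limma adjusted p = 2.44e-06). A filter on dim probe sets was set at the 40th percentile of all probe set means, an intensity of 166.8. All 8 markers of midbrain dopamine neurons lay above it. Of these, 7 were called higher in RKO, Th among them (limma adjusted p under 0.05), and 1 did not pass (-0.10). Over all tested genes 0.640% were called higher. The 8 had a median log2 difference of 0.34. They summed to 15110 and 15447 on the WT arrays and to 18624 and 19446 on the RKO arrays. The part of these neurons in the values of the position factors was not tested. The median intensity over the 13587 genes above that filter was 539.8 in RKO replicate 1 and 558.6 to 558.7 on the other arrays. Over all probe sets the order turned, with 240.1 in RKO replicate 1 and 235.7 to 236.8 elsewhere. RKO replicate 1 thus stood apart from the other arrays in both, by a small amount. In correlation over all probe sets it was WT replicate 1 that stood apart, at 0.99343 to 0.99382 with the other arrays, which had 0.99463 to 0.99564 among themselves. Over the tested genes the log2 difference between the WT arrays had a standard deviation of 0.0998. It was 0.1090 to 0.1431 between a WT and an RKO array. Differences below are RKO minus WT in log2 of the deposited intensity, with limma's moderated standard error (SE), and p-values are adjusted by Benjamini-Hochberg over the 13587 tested genes. With 2 arrays a group, the SE rests partly on a gene's own replicates and more on the spread over all tested genes. These carry 2 residual and 8.73 prior degrees of freedom. An exact permutation test of a single gene could not go below p = 0.333.

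Of the 50 position factors 38 lay above the filter and were tested. Zic2 fell and Pax5 rose, while the other 36 did not pass an adjusted p under 0.05. These 2 called genes were 5.26% of the tested members, beside 1.60% over all tested genes (0.640% higher and 0.964% lower). At an unadjusted p under 0.05 there were 16 members, 8 higher and 8 lower, or 42.1% beside 12.8% of all tested genes. Counts in the smaller sets and marker lists below stand beside these same shares, 1.60% called and 12.8% at that unadjusted p. In 24 of the 38 (63.2%) the RKO arrays lay on one side of both WT arrays, 12 above and 12 below, where 41.8% of all tested genes did (17.2% above and 24.6% below). The difference was above 0 in 22 of the 38, or 57.9%, beside 43.2% of all tested genes. Their median was 0.05, and it turned to -0.02, with 18 of 38 above 0, without WT replicate 2. With median centring over the tested genes 25 of 38 were above 0. The median size of the difference was 0.112 in the members and 0.052 over all tested genes. The tested members were dimmer, at a median intensity of 272 against 553. At or above the 60th percentile the sizes were 0.161 in members and 0.045 in all genes, and below it 0.108 and 0.073. The shares at an unadjusted p under 0.05 were 53.3% and 9.94% in the upper range, and 34.8% and 19.3% in the lower. The members were chosen with earlier results of these arrays in view, so these shares describe the list and are no test of it.

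**Figure D1:**
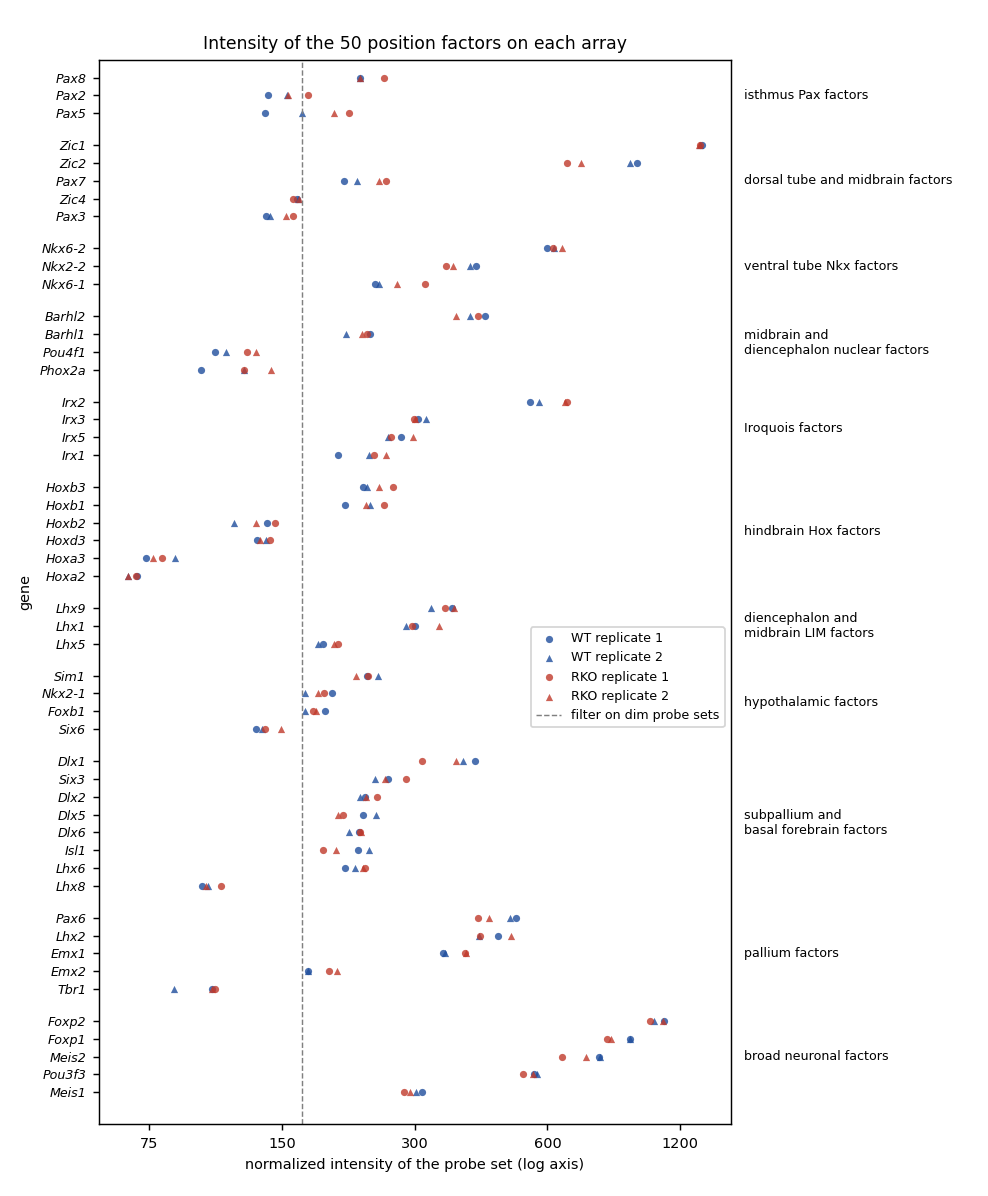
Normalized intensity (log axis) of each of the 50 position factors on the 4 arrays, grouped by the domain where the factor is known to act, with WT in blue and RKO in red and the filter on dim probe sets at 166.8 as a dashed line. The 12 genes below the filter have means left of the line, among them 4 of the 6 Hox genes, and Zic2 is the gene above it whose RKO arrays stand farthest left of its WT arrays.

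On the deposited scale the direction of a difference went with signal level, in the members as in all genes. Of the 15 members at or above the 60th percentile of all probe sets 10 were below 0 (66.7%, median -0.06), as were 63.9% of all genes at that level. Of the 23 members between the 40th and the 60th percentile 17 were above 0 (73.9%, median 0.09), beside 59.5% of all genes there. Without RKO replicate 1, 48.7% of all genes in the upper range were below 0 and 9 of the 15 members were, while in the lower range 56.8% of all genes and 16 of the 23 members were above 0. The split of the upper range moved with the scaling as well. With median centring over the tested genes 8 of the 15 members and 47.9% of all genes there were below 0, and with quantile normalization 8 and 50.5%. In the lower range these scalings left 18 and 16 of the 23 members above 0, beside 68.8% and 55.4% of all genes.

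**Figure D2:**
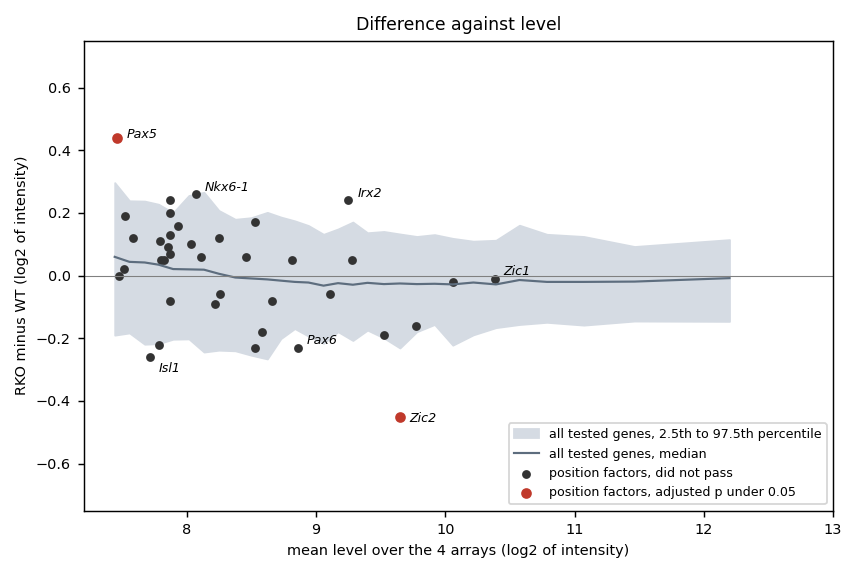
Difference between RKO and WT (log2) against mean level over the 4 arrays (log2) for the 38 tested position factors (points), over the median (line) and the central 95% (band) of all 13587 tested genes. Pax5 at 0.44 lies above the band and Zic2 at -0.45 below it. Uncalled members lie outside it too, such as Irx2 and Pax7 above (0.24 each) and Isl1 (-0.26) and Pax6 (-0.23) below. The median of all genes slopes from above 0 at low levels to below 0 at higher ones.

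Among the factors of the dorsal neural tube and dorsal midbrain, Zic2 fell and its relatives did not move with it. Zic2, a zinc-finger protein of the dorsal midline and forebrain, read 956 and 922 in WT against 663 and 714 in RKO. Both RKO values were well below both WT values, and the gap between the groups was several times the gap within either. The fall was 1.36-fold (log2 difference -0.45, SE 0.0602, 95% interval -0.58 to -0.32, adjusted p = 0.00314), and 64th by p among all tested genes. Zic1, the close paralogue that shares much of the dorsal pattern, read 1347 and 1330.2 on the WT arrays and 1328 and 1326 on the RKO arrays (difference -0.01, 95% interval -0.13 to 0.11, adjusted p = 0.964), with both RKO values below both WT values by a narrow margin. Zic4, which neighbours Zic1, lay just below the filter at 162 and 163 in WT against 159 and 164 in RKO. A second probe set for Zic4, the only further one for any member, read 124 and 127 on the WT arrays and 153 and 132 on the RKO arrays (difference 0.18), so the probe sets of this dim gene differed from each other. Zic5, which is no member but stands beside Zic2 on the chromosome in RefSeq's gene order and was looked up after the value of Zic2 was seen, read 275 and 279 in WT against 288 and 264 in RKO (-0.01, adjusted p = 0.983).

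The fall of Zic2 was called in 10 of 12 alternative analyses, with differences of -0.50 to -0.40. It was not called without the filter (adjusted p = 0.0912) or without RKO replicate 1 (difference -0.40, adjusted p = 0.0607). Markers of tissue around the midbrain moved on the same arrays. Of 13 leptomeningeal genes 12 were tested and 8 were called lower, Ogn and Islr in front, beside 0.964% of all tested genes. Of the 12, 10 lay below 0 and 2 above. The list summed to 6272 and 6383 on the WT arrays and to 4889 and 4856 on the RKO arrays. Of 9 thalamic genes, all tested, Prkcd and Ramp3 were lower and 7 did not pass. The 9 ran from -0.68 to 0.31, with 8 below 0 and 1 above on the deposited scale. Their sums were 11254 and 11680 on the WT arrays and 9490 and 9786 on the RKO arrays. The part of either tissue in the fall of Zic2 was not tested. In whole tissue, fewer cells of a type and less RNA per cell cannot be told apart.

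Pax7 and Pax3, paired-box factors of the alar plate that mark the dorsal midbrain and its colliculi, were higher in both RKO arrays. Only Pax7 was tested, and it did not pass. Pax7 read 207 and 222 in WT against 258 and 249 in RKO (difference 0.24, 95% interval 0.11 to 0.37, adjusted p = 0.0792). Pax3 lay below the filter, at 138 and 141 on the WT arrays and 159 and 153 on the RKO arrays, and was not tested with the rest.

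**Figure D3:**
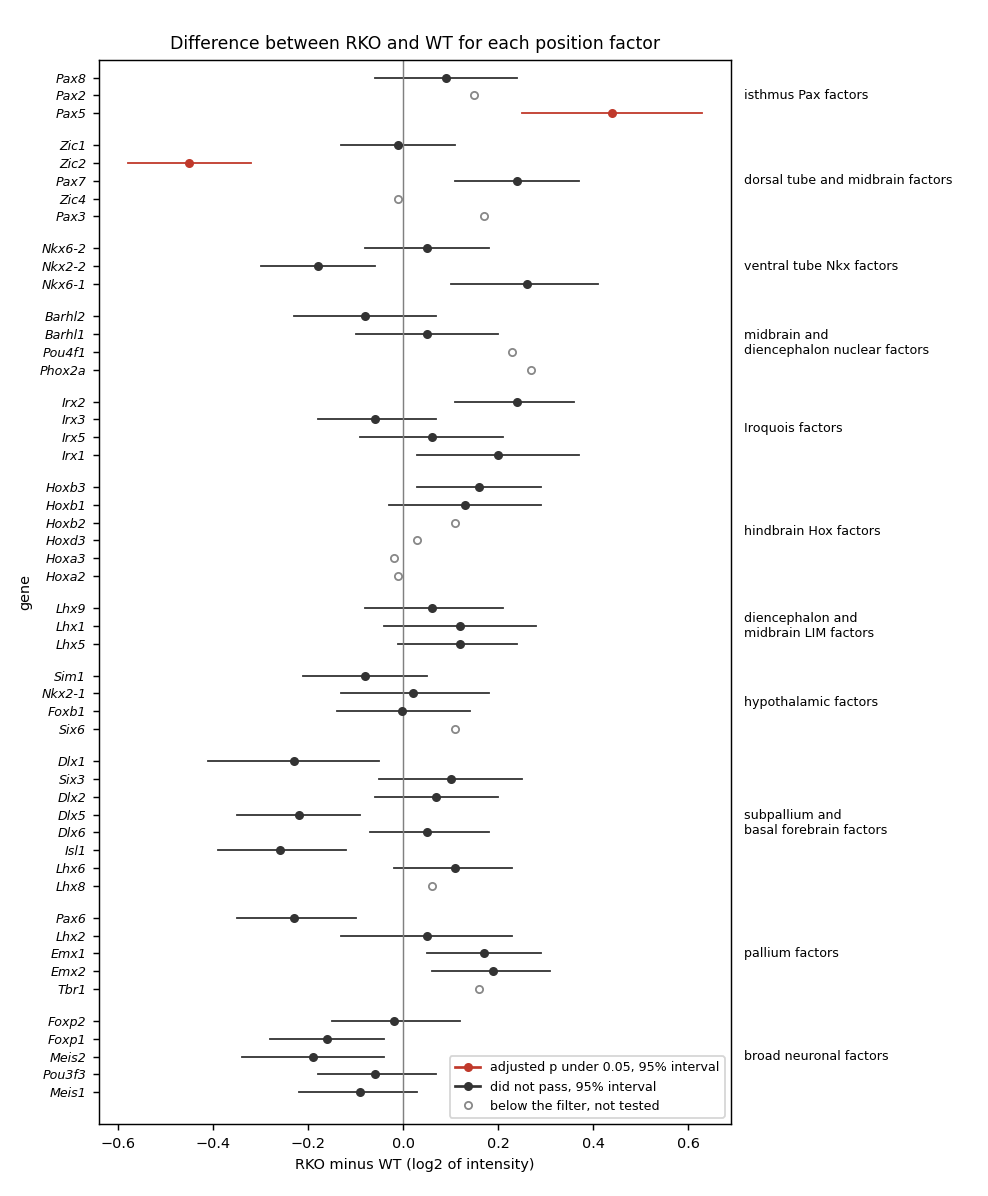
Difference between RKO and WT (log2) for each of the 50 position factors by domain, with limma's 95% interval for the 38 tested genes and open points without interval for the 12 below the filter. Zic2 and Pax5, in red, are the called genes, the 5 broad neuronal factors lie below 0 on this scale, and Foxp2 among them is at 0.01 with median centring or quantile normalization. The 3 isthmus Pax factors lie above 0.

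At the isthmus, Pax5 rose. Pax5, which with Pax2 sets up the midbrain and the isthmic organizer and is also known from B cells, read 137 and 167 in WT against 213 and 197 in RKO. The RKO values lay above both WT values, although the WT replicates were about as far from each other as the nearest values of the groups were. The rise was 1.36-fold (log2 difference 0.44, SE 0.0845, the widest of any tested member, 95% interval 0.25 to 0.63, adjusted p = 0.0275). Pax5 was also the tested member nearest to the filter: its mean level was 176, followed by Foxb1 at 178, while Zic4 at 162 and Pax2 at 155 were just outside. WT replicate 1 itself was below the filter. The call held in 5 of 11 alternative analyses, with differences of 0.30 to 0.58 throughout. It was lost without the filter, under median centring over the tested genes, under quantile normalization, and without WT replicate 1 (adjusted p = 0.0855), RKO replicate 1 (0.323) or RKO replicate 2 (0.101).

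The other isthmus factors were less far apart. Pax2, the earliest of them to appear, read 139.7 and 154 on the WT arrays and 172 and 155 on the RKO arrays and was below the filter (difference 0.15). Pax8, which follows Pax2 and Pax5 at the isthmus, read 225 and 226 in WT against 255 and 225 in RKO, so the groups overlapped (0.09, 95% interval -0.06 to 0.24, adjusted p = 0.661).

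**Figure D4:**
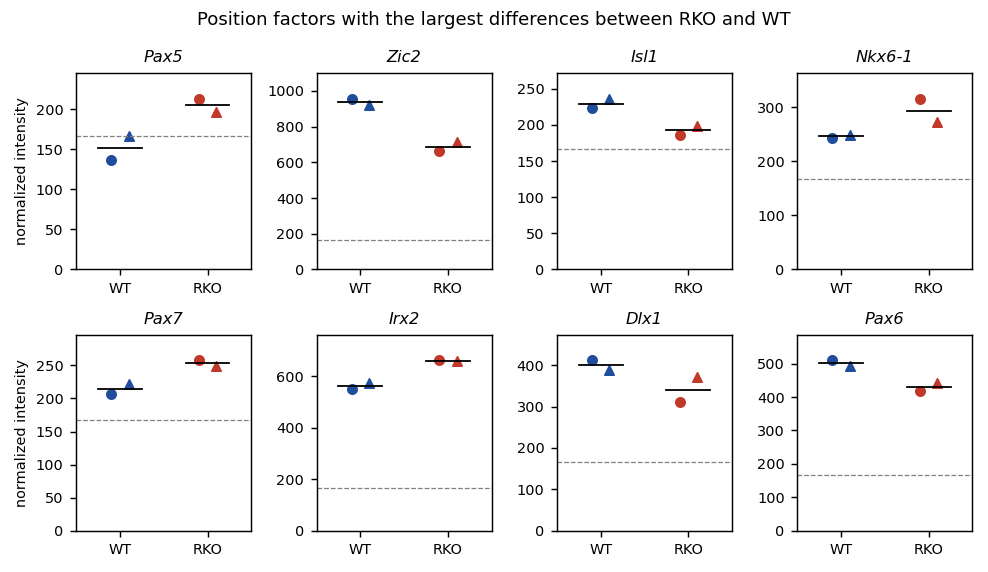
Normalized intensity (linear axis from 0) on each array for the called genes Pax5 and Zic2 and the 6 uncalled position factors with the largest differences among those tested, WT in blue and RKO in red, circles for replicate 1 and triangles for replicate 2. Black bars are geometric group means and the dashed line is the filter at 166.8. In all 8 genes, which were chosen by call or size of difference, the RKO arrays lie on one side of both WT arrays. The share was 41.8% over all tested genes. In Pax5 the lower WT value lies below the filter.

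The ventral Nkx factors, homeodomain proteins induced by Sonic hedgehog, went different ways, and 0 of 3 were called by limma (2 at an unadjusted p under 0.05). Nkx6-1, which marks basal progenitors and some tegmental neurons, read 244 and 249 on the WT arrays and 316 and 274 on the RKO arrays (difference 0.26, 95% interval 0.10 to 0.41, adjusted p = 0.121). The difference of Nkx6-1 was 0.15 without RKO replicate 1 and 0.36 without RKO replicate 2 (adjusted p = 0.626 and 0.0638 in limma). Nkx2-2, a factor of the ventral tube that later acts in oligodendrocyte precursors, read 413 and 401 in WT against 353 and 366 in RKO (-0.18, 95% interval -0.30 to -0.06, adjusted p = 0.182). Nkx6-2, which in the adult is found mainly in myelinating oligodendrocytes, read 599.6 and 622 on the WT arrays and 616 and 648 on the RKO arrays (0.05, 95% interval -0.08 to 0.18, adjusted p = 0.83). The groups were apart for the first pair and overlapped for Nkx6-2. Of the 9 oligodendrocyte markers Opalin was lower, 8 did not pass, and all 9 lay below 0 (median -0.09), with sums of 39356 and 38378 in WT against 36190 and 36371 in RKO. The 8 precursor markers lay below 0 as well, 7 of them with median centring or quantile normalization (median -0.07, 0 called in limma and 1 at an unadjusted p under 0.05, sums of 6437 and 6169 against 5946 and 6172). The part of these cells in the Nkx values was not tested.

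The Iroquois factors pattern the diencephalon, midbrain and hindbrain and sit in 2 gene clusters. Irx2 read 549 and 574 on the WT arrays and 663 and 659 on the RKO arrays, with no overlap (difference 0.24, 95% interval 0.11 to 0.36, adjusted p = 0.0742). Its neighbour Irx1 read 201 and 236 in WT against 243 and 258 in RKO (0.20, 95% interval 0.03 to 0.37, adjusted p = 0.282). Irx3 (-0.06) and its neighbour Irx5 (0.06) were nearer to 0, with intervals of -0.18 to 0.07 and -0.09 to 0.21. None of the 4 passed in the fit over all genes (0 called in limma, 2 at an unadjusted p under 0.05), and the group median was 0.13. Irx2 was called with an intensity trend (adjusted p = 0.015) and with the filter at the 60th percentile (0.0167), and Irx1 without WT replicate 2 (difference 0.32, adjusted p = 0.0402). Without WT replicate 1 the difference of Irx1 was 0.09 (adjusted p = 0.925).

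Hox genes, which give hindbrain segments their identity and are normally silent rostral to the isthmus, lay below the filter in 4 of 6 cases. Hoxa2 (67.0 to 70.4 over the 4 arrays), Hoxa3 (73.7 to 86.0), Hoxb2 (117 to 145) and Hoxd3 (132 to 141) were below the filter. Hoxb3 read 229 and 234 on the WT arrays and 268 and 249 on the RKO arrays (difference 0.16, 95% interval 0.03 to 0.29, adjusted p = 0.278), and Hoxb1 read 208 and 237 in WT against 255 and 233 in RKO (0.13, adjusted p = 0.51). The RKO values of Hoxb3 lay above both WT values and those of Hoxb1 overlapped with them. Over all 6 genes 4 lay above 0 and 2 below, with a median of 0.07.

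Factors of single nuclei of the midbrain and diencephalon showed no called change. Phox2a, which specifies noradrenaline neurons and the oculomotor and trochlear nuclei, lay below the filter at 98.5 and 123 on the WT arrays and 123 and 142 on the RKO arrays. Pou4f1, known from the red nucleus and the habenula, did so too, at 106 and 112 in WT against 125 and 131 in RKO. Their differences of 0.27 and 0.23 were the largest among the 12 genes below the filter. For these 12, values ran from 67.0 to 172, differences from -0.02 to 0.27 with a median of 0.11, and the groups were apart in 6, beside 37.5% of all genes below the filter. Tested without a filter, 2 of the 12 had an unadjusted p under 0.05, beside 13.2% of all genes below the filter, and the smallest adjusted p was 0.334. Barhl1 (0.05) and Barhl2 (-0.08), homeodomain proteins of diencephalic and cerebellar neurons, were tested and overlapped between the groups. Barhl2 read 432 and 401 on the WT arrays and 417 and 373 on the RKO arrays (95% interval -0.23 to 0.07, adjusted p = 0.741). Of 6 habenula markers 4 were tested and Tac2 was lower, with 2 of 4 above 0 and a median of 0.02, and of 5 noradrenaline markers 3 were tested, 0 being called in limma (2 at an unadjusted p under 0.05).

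The LIM-homeodomain factors of diencephalon and midbrain lay above 0, except Lhx9 without WT replicate 2, and none was called (0 of 3 also at an unadjusted p under 0.05 in limma). Lhx9, which with Lhx2 forms the thalamus and pretectum, read 365 and 326 in WT against 352 and 368 in RKO (0.06, 95% interval -0.08 to 0.21, adjusted p = 0.792). Lhx1 and Lhx5, paralogues in many of the same early neurons, had differences of 0.12 each, with intervals of -0.04 to 0.28 and -0.01 to 0.24. Only for Lhx5 among these 3 did the groups not overlap.

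Hypothalamic factors were the closest to 0. Sim1, needed for the paraventricular nucleus, read 234 and 248 on the WT arrays and 235 and 221 on the RKO arrays (-0.08, 95% interval -0.21 to 0.05, adjusted p = 0.667). Nkx2-1, which defines the ventral hypothalamus, and Foxb1 of the mammillary body stood at 0.02 (-0.13 to 0.18) and -0.0027 (-0.14 to 0.14). Six6, also expressed in the pituitary, lay below the filter at 131 to 149 over the 4 arrays. Of 10 tested hypothalamic markers Pmch and Hcrt, peptide genes of the lateral hypothalamus, were lower (-1.14 and -0.52) and 8 did not pass, with 4 of 10 above 0, a median of -0.04 and a range of -1.14 to 0.24, with list sums of 2851 and 2971 in WT against 2538 and 2518 in RKO.

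In the subpallial and basal forebrain set, the Dlx genes and Isl1 split. Isl1, a LIM-homeodomain factor of striatal, hypothalamic and motor neurons, read 223 and 236 on the WT arrays and 186 and 199 on the RKO arrays (difference -0.26, 95% interval -0.39 to -0.12, adjusted p = 0.0713). Dlx1, one of the factors that specify forebrain GABA neurons, read 412 and 387 in WT against 311 and 372 in RKO (-0.23, 95% interval -0.41 to -0.05, adjusted p = 0.24), with RKO replicate 1 the lowest. The difference of Dlx1 was -0.10 without RKO replicate 1 and -0.36 without RKO replicate 2 (adjusted p = 0.881 and 0.0809 in limma). Dlx5 read 229 and 245 on the WT arrays and 206 and 201 on the RKO arrays (-0.22, 95% interval -0.35 to -0.09, adjusted p = 0.119). In each of these 3 both RKO values lay below both WT values. The partners that share a locus with the Dlx genes stood on the other side of 0, Dlx2 at 0.07 (-0.06 to 0.20) and Dlx6 at 0.05 (-0.07 to 0.18), each with RKO values just above both WT values. Whether partners differed from each other was not tested. Lhx6, a factor of interneurons from the medial ganglionic eminence, was at 0.11 and Six3, an anterior forebrain factor, at 0.10. Lhx8, of basal forebrain cholinergic neurons, lay below the filter at 98.8 to 109 over the 4 arrays. Of the 7 tested genes 0 were called by limma (3 at an unadjusted p under 0.05). Of 6 striatal markers 0 were called (3 at an unadjusted p under 0.05), with a median of 0.0023.

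Pallial factors, which mark cortex and hippocampus, were split as well, and 0 of 4 tested were called by limma (3 at an unadjusted p under 0.05). Pax6, a paired-box factor of cortical progenitors that also marks diencephalic and dorsal midbrain cells and some astrocytes, read 510.4 and 494 in WT against 418 and 442 in RKO (-0.23, 95% interval -0.35 to -0.10, adjusted p = 0.0953). It passed with an intensity trend (0.039), with the 60th percentile filter (0.026) and with centring over all probe sets (0.0429). Emx1 read 347 and 351 on the WT arrays and 391 and 393 on the RKO arrays (0.17, 95% interval 0.05 to 0.29, adjusted p = 0.202), and Emx2 read 172 and 172 in WT against 192 and 199.6 in RKO (0.19, 95% interval 0.06 to 0.31, adjusted p = 0.162). These homeobox genes of dorsal forebrain had close replicates in both groups. Lhx2 overlapped (0.05, -0.13 to 0.23), and Tbr1, of early-born cortical neurons, lay below the filter at 85.3 to 106. Of 6 tested cortical and hippocampal markers Slc17a7 was lower and 5 did not pass, with 2 of 6 above 0 and a median of -0.04. Of 10 astrocyte markers Gfap and Aldh1l1 were lower and 8 did not pass, with 5 above 0 and 5 below, and sums of 31910 and 31921 on the WT arrays and 32512 and 32951 on the RKO arrays. Their part in the Pax6 value was not tested.

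The 5 factors that stay on broadly in neurons lay below 0 on the deposited scale, 4 of them with median centring, with quantile normalization and without WT replicate 1 or RKO replicate 1, where Foxp2 was at 0.01 to 0.03. They had a median of -0.09 and 0 of 5 called in limma (2 at an unadjusted p under 0.05). Meis2, a partner of Hox and Pax proteins that is strong in striatal and midbrain neurons, read 787 and 791 in WT against 648 and 735 in RKO (-0.19, 95% interval -0.34 to -0.04, adjusted p = 0.243). The difference of Meis2 was -0.10 without RKO replicate 1 and -0.28 without RKO replicate 2 (adjusted p = 0.851 and 0.113 in limma). The forkhead repressor Foxp1 read 925 and 924 on the WT arrays and 818 and 836 on the RKO arrays (-0.16, 95% interval -0.28 to -0.04, adjusted p = 0.23). Foxp2, its paralogue, read 1103 and 1048 in WT against 1024 and 1099 in RKO and overlapped (-0.02, 95% interval -0.15 to 0.12, adjusted p = 0.949). Meis1 (-0.09, -0.22 to 0.03) and the POU factor Pou3f3 (-0.06, -0.18 to 0.07) were lower in both RKO arrays by amounts their intervals do not separate from 0. All but Meis1 are in the level range where most genes lay below 0.

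Several members are neighbours in the genome, and RefSeq's gene order gave 8 such links, with 1 protein-coding gene between Hoxb3 and Hoxb2 and none within the other 7. The differences were 0.20 and 0.24 in Irx1 and Irx2, 0.13, 0.11 and 0.16 in Hoxb1, Hoxb2 and Hoxb3, and -0.01 each in Zic1 and Zic4, whose second probe set was at 0.18. They lay on opposite sides of 0 within Dlx1 and Dlx2, Dlx5 and Dlx6, and Irx3 and Irx5. Hoxa2 and Hoxa3 (-0.01 and -0.02) are both below the filter.

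Promoter sequences were looked at for AGGTCA, the 6-base core to which REV-ERBα and the activating ROR receptors bind. RefSeq's promoter table for GRCm38.p6 held 39 of the 50 members in 48 windows, and the 250 bases before each start were read on both strands. The motif stood in 3 of the 48 windows (6.25%), where 4607 of all 32851 windows of that length (14%) held it. The 3 with a match and, for comparison, the window of Pax5, which has none, are printed 5′ to 3′ on the gene's strand with AGGTCA or its reverse complement TGACCT in capitals. They lie at chr2:28916669-28916918 on the minus strand (Barhl1), chr2:71529195-71529444 on the plus strand (Dlx1), chr2:74711743-74711992 on the plus strand (Hoxd3) and chr4:44710695-44710944 on the minus strand (Pax5).
Barhl1: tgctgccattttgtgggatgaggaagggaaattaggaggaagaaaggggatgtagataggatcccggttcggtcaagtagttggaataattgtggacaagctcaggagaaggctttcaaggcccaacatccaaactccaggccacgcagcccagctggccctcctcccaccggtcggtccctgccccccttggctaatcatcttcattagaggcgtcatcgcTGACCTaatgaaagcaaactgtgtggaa
Dlx1: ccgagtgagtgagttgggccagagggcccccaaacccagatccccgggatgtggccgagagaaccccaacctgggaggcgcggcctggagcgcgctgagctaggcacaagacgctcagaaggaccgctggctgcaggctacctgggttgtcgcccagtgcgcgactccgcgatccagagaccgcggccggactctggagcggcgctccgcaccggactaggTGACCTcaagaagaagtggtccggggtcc
Hoxd3: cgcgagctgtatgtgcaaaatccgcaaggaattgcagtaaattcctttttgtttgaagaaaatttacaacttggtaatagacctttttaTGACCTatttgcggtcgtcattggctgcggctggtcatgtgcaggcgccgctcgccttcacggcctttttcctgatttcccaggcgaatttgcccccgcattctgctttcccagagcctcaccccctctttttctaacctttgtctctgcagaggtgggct
Pax5: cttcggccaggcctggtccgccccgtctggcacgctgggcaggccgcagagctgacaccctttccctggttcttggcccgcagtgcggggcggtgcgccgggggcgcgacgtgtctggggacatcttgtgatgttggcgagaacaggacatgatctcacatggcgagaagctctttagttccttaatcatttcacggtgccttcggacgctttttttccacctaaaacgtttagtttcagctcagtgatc

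The matches lie 22, 23 and 155 bases before the start in Barhl1, Dlx1 and Hoxd3, whose differences were 0.05, -0.23 and 0.03, none of them called. These letters alone show no binding, and their absence from a window says nothing of the receptor. The windows of the members share another feature: they held a median of 15 CG dinucleotides in 250 bases (3 to 47), against 6 over all windows, and a median of 60.8% G and C against 52.4%. The E-box CACGTG, through which BMAL1 and CLOCK act, stood in 6.25% of member windows and 6.02% of all, the homeodomain core TAATTA in 4.17% and 4.84%, and the TATA box TATAAA in 4.17% and 12.4%. AGGTCA and CACGTG can share the bases CA where they meet, and TATAAA and TAATTA their ends, so matches may overlap. Zic2 is among the 11 members without a window.

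The count of called position factors is given for each altered analysis beside the share of all genes called in it. Without a filter 0 of 50 were called (17 at an unadjusted p under 0.05 in limma), beside 0.155% of all genes, and with the filter at the 60th percentile 3 of 15, beside 3.13%. With median centring over the tested genes 1 of 38 was called beside 0.780%, with quantile normalization 1 beside 1.22%, with the mean of a gene's probe sets 2 beside 1.72%, with an intensity trend 4 beside 3.67%, and with centring over all probe sets 7 beside 3.35%. The added 5 under that centring were Pax7, Nkx6-1, Dlx1, Isl1 and Pax6. A block for the replicate number called 2 beside 1.91%, and the crossed block 10 beside 5.12%. With the crossed block and with centring over all probe sets limma gave all genes a common variance. Leaving out an array gave 1 beside 1.23% (WT replicate 1), 3 beside 2.16% (WT replicate 2), 0 beside 0.537% (RKO replicate 1, 13 at an unadjusted p under 0.05 in limma) and 1 beside 0.729% (RKO replicate 2).

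Further position factors, listed apart from the 50, included the midbrain factors En1, En2, Gata2 and Gata3. Of 53 with a value 35 were tested, Gata3 rose, 0 fell and 34 were not called by limma (14 at an unadjusted p under 0.05, 12 of them higher). Over all tested genes the shares were 1.60% called and 12.8% at that unadjusted p. Of the 35, 28 lay above 0, beside 43.2% of all tested genes. Direction went with signal level, and this list was not split by level. The median of the 35 was 0.08, beside 0.05 in the 38 members and -0.012 over all tested genes. Gata3, a selector of midbrain GABA and serotonin neurons, read 332 and 339 on the WT arrays and 446 and 479 on the RKO arrays (difference 0.46, 95% interval 0.33 to 0.59, adjusted p = 0.00233). Gata2, which acts upstream of it, read 313 and 311 in WT against 362 and 403 in RKO (0.29, adjusted p = 0.0511). Sox14, of ventral GABA neurons (0.28, adjusted p = 0.0713), and En1, an engrailed factor of midbrain and isthmus that dopamine neurons keep (0.27, adjusted p = 0.0686), were next in size.

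Of 19 cofactors of homeodomain and LIM proteins, the Pbx, Lmo, Ldb, Ssbp and Tle families among them, 0 were called in limma (1 at an unadjusted p under 0.05) and the median was 0.0004. The largest difference was that of Pbx3, a partner of Hox and Meis proteins, at 2022 and 2027 on the WT arrays and 2264 and 2276 on the RKO arrays (0.17, 95% interval 0.04 to 0.29, adjusted p = 0.213). Lmo3 (0.12) and Tle4 (-0.11) followed. Of 28 tested patterning signals and their readouts, Aldh1a2 fell and 27 did not pass, with a median of -0.02. Aldh1a2, which makes retinoic acid and in the adult brain is known from the meninges, read 324 and 293 in WT against 225 and 212 in RKO (-0.50, 95% interval -0.64 to -0.35, adjusted p = 0.00283) and is also on the leptomeningeal list. The BMP readout Id3 (-0.31, adjusted p = 0.0559), Wnt3 (-0.27, 0.0866) and Bmp4 (-0.26, 0.0575) did not pass.

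The remaining marker lists describe other tissue the arrays could hold. Of 6 serotonin markers 4 had a value and 1 was tested, of 6 markers of brainstem cholinergic and glycine neurons 3 were tested, and of 6 cerebellar markers 2 were, none of them called in limma (0, 1 and 1 at an unadjusted p under 0.05). The cerebellar gene at that p was En2 (0.25), which is also among the further position factors, and the other tested one was at 0.02. Summed intensities of the cerebellar list were 1085 and 1096 on the WT arrays and 1134 and 1183 on the RKO arrays, and of the brainstem list 973 and 993 against 1023 and 1023. Of 8 endothelial and pericyte, 7 choroid plexus and ependymal and 7 microglial genes tested, 0 were called (3, 1 and 1 at that unadjusted p), with medians of -0.08, 0.04 and -0.07. The part of these cells in the values of the position factors was not tested.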

How the data were processed

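The deposited values are normalized intensities on a linear scale, 1 for each of 35556 probe sets on each array. The submitters' processing notes name GCOS and RMA with neither version nor setting. RMA as usually run evens out the distributions of arrays, which would remove a shift common to most genes. Log2 was taken of the deposited intensities here, with no pseudocount. Of the probe sets 21789 had 1 symbol in GEO's platform annotation, 1621 had several and 12146 were unnamed here. Only the first kind was used for genes. No source used here gives the build behind the array's annotation.

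Each of 19938 genes was represented by its brightest probe set on average. The filter at the 40th percentile (log2 7.38) took out 6351. The RKO minus WT contrast was fitted in R 4.3.3 with limma 3.58.1 (lmFit, eBayes), with no covariate, two-sided, with 2 residual and 8.73 prior degrees of freedom, with Benjamini-Hochberg adjustment over 13587 genes at 0.05. The procedure was tested on simulated data. All 51 probe sets of the 50 members matched RefSeq identifiers. p-values set a difference against the spread between the arrays of a group, which the labels call biological. limma takes that spread only in part from the gene itself and more from all tested genes.

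The members, domains, other lists and markers were chosen with earlier results of these data known. Named are the called members, the 12 further tested ones with the largest differences and, per domain, the one with the highest mean, and of the other lists the called genes and the 3 next in size. Of other markers only called genes are named, apart from En2, which is also on the list of further position factors. Alternatives were another filter or none, 3 scalings, an intensity trend, the mean of probe sets, the replicate number as a block, and leaving out each array. Centring over all probe sets and the crossed pairing were added after seeing the data. The crossed pairing is left out of the counts of alternatives given for named factors. The replicate numbers pair nothing in the labels. Positions of promoters are those of RefSeq's GRCm38.p6.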

Additional observations from a re-analysis of the deposited data

How the results depend on the processing

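Calls depended on the filter, the scaling and the arrays kept. Of 254 values of named factors under alternatives 227 kept direction and side of the threshold, which most factors never passed, and sizes moved more: with 1 array left out Irx1 ran from 0.09 to 0.32, Dlx1 from -0.36 to -0.10, Meis2 from -0.28 to -0.10 and Nkx6-1 from 0.15 to 0.36. Over all genes limma called 218, against 31 without a filter, 106 with median centring over the tested genes, 455 with centring over all probe sets, 499 with an intensity trend, and 73 to 293 when 1 array was left out, fewest without RKO replicate 1 (73, of which 72 were among the 218) and then without RKO replicate 2 (99, 87 shared). RKO replicate 1 had the lowest median over tested genes and the highest over all probe sets, so these centrings move it in opposite directions. The prior degrees of freedom changed as well. They were 8.73 in the analysis reported, 3.94 with median centring over the tested genes and 50.80 with an intensity trend. With centring over all probe sets and with the crossed block they were infinite, so that all genes had a common variance. Called position factors, 2 in the analysis reported, numbered 0 without a filter (17 at an unadjusted p under 0.05), 1 with centring over the tested genes or quantile normalization (Zic2), 4 with an intensity trend (Irx2 and Pax6 added), 7 with centring over all probe sets, and 0 to 3 with 1 array left out: 0 without RKO replicate 1 (13 at an unadjusted p under 0.05), 1 without WT replicate 1 or RKO replicate 2 (Zic2), 3 without WT replicate 2. With the replicate number as a block the counts were 259 and 2. Same-numbered arrays deviated from their group means with a correlation of -0.114, so the crossed block was tried as well. It called 696 genes and 10 position factors, Pax5, Zic2, Irx1, Irx2 and Pax6 among them. With 2 arrays a group, crossing the pairs turns the sign of that correlation. The crossed pairing was thus picked from these data, and its larger counts are no support for any call.

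Group medians moved beyond the replicate spread in these cases. Without a filter, which adds dim members, the isthmus median was 0.15, that of midbrain and diencephalon nuclear factors 0.14 and the pallial one 0.16. With the 60th percentile filter, which leaves fewer members, it was -0.23 for the dorsal set (2 genes), -0.07 for the ventral Nkx (2) and 0.05 for the pallial (3). Only 1 gene was left in the Iroquois set (Irx2, 0.24) and 1 in the subpallial set (Dlx1, -0.23). A change of filter alters which members are counted, while the difference of each gene stays the same. Leaving out 1 array gave 0.01 to 0.09 for the ventral Nkx, 0.07 to 0.19 for the Iroquois, 0.02 to 0.07 for the subpallial and 0.04 to 0.17 for the pallial set. Signs turned only in uncalled genes near 0. Zic1 became 0.01 with median centring and 0.02 with quantile normalization, and Foxp2 0.01 under each. With 1 array left out Foxp2 ran from -0.07 to 0.03, Pax8 from -0.0019 to 0.18, Barhl2 from -0.16 to 0.0027 and Lhx9 from -0.02 to 0.15. Low signal limits the 12 genes below the filter and Pax5, the tested member nearest to it. It can affect further members, as 23 of the 38 tested lay between the 40th and the 60th percentile. No background level was measured.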
